A study of Mus musculus with 11 samples.

Results

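The phase II conjugation enzymes described here are the sulfotransferases, the UDP-glucuronosyltransferases of the Ugt1a, Ugt2 and Ugt3 families, and the cytosolic glutathione S-transferases of the alpha, mu, pi and theta classes. Members were all genes of the deposited count table whose symbols start with Sult, Ugt1a, Ugt2, Ugt3, Gsta, Gstm, Gstp or Gstt and that had at least 1 read over the 11 libraries. This gave 54 of the 43346 genes in the table; Sult1c1 also carried such a symbol but had no read. The libraries are bulk RNA sequencing of livers of FVB/NJ mice in which co-expression of MET and β-catenin had induced hepatocellular carcinoma (HCC). All 11 carried this tumour model and were labelled with anti-PD-1, an antibody against the T cell checkpoint receptor PD-1. By the label on treatment response, 6 libraries were responders, 4 were non-responders and 1 had no treatment, although its treatment label also names anti-PD-1. The sources used here give neither the age nor the sex of the mice, nor how much of each liver sample was tumour.

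Phase II enzymes attach a polar group to drugs, steroids, bile acids, bilirubin and reactive metabolites, usually after cytochromes P450 have exposed a site for it. Sulfotransferases use the sulfate donor PAPS, UDP-glucuronosyltransferases (the Ugt3 enzymes apart, which prefer other sugars) use UDP-glucuronic acid, and glutathione S-transferases use reduced glutathione. Hepatocytes carry most of this activity, several rodent sulfotransferases are more abundant in female than in male liver, and many glutathione S-transferase genes respond to the oxidant sensor NRF2.

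Each library held 17876515 to 49884800 counts assigned to genes. Values below are CPM, the counts put on a common library size after scaling by the trimmed mean of M-values (TMM) over all 11 libraries. Responders were compared with non-responders by edgeR's quasi-likelihood test with Benjamini-Hochberg adjustment over 17610 genes, and a gene is said to have risen or fallen in responders at an adjusted p under 0.05. Nothing in the labels ties the libraries to separate mice, and the p-values therefore cover only the spread among libraries of a group, which may be technical. Responders 4 and 6 stood apart from the other responders: the fetal liver and tumour gene Afp was at 121.7 and 100.1 CPM in them, at 1.38 to 2.33 CPM in the other responders, at 111 to 383 CPM in the non-responders and at 1.72 CPM in the untreated library. A list of 12 fetal liver and tumour genes summed to 5.998 to 386 CPM in responders, 643 to 1583 CPM in non-responders and 6.26 CPM in the untreated library. Of its 11 tested genes edgeR called 3 lower in responders, and all 11 had negative log2 fold changes (median -2.80). In edgeR 6 had an unadjusted p under 0.05. DESeq2 called 5 lower, limma-voom 7 and limma-voom with quality weights 8. Of the 12 genes, Spink3 had no read in 6 libraries and none was without reads in all 11. The part of this list in the results below was not tested. Non-responder 1 stood apart more than any other library: the median chi-square over genes between it and the other non-responders was 23.3 to 29.9 times the value under counting noise, against 3.97 to 9.69 times for the other 18 pairs within a group.

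Several lists of cell type markers also differed between the groups, and their part in the results was not tested. Of 12 periportal hepatocyte genes 6 were higher in responders and all 12 had positive log2 fold changes (median 1.29; summed CPM 3036 to 7880 in responders, 1416 to 3583 in non-responders). Of 12 perivenous genes 1 was higher and 2 lower, with a median log2 fold change of -0.78 (3 positive, 9 negative). Of 9 general hepatocyte genes 1 was higher and 2 lower, with a median of 0.17 (5 positive, 4 negative). Their sums of 87245 to 99357 CPM in responders lay below the 116583 to 141281 CPM of non-responders. Of 6 erythroid genes 3 were lower in responders (83.0 to 190 CPM in sum, against 145 to 294). Of 10 endothelial genes 1 was lower, but 8 had a positive and 2 a negative log2 fold change (median 0.34), and 4 an unadjusted p under 0.05 in edgeR. EdgeR called 0 of 10 stellate and fibroblast genes (7 had an unadjusted p under 0.05; DESeq2 called 3, limma-voom 0 and limma-voom with quality weights 2) and 0 of 8 cholangiocyte genes (2 had an unadjusted p under 0.05; 1, 0 and 2 calls with those tools). It also called 0 of 14 leukocyte genes (0 had an unadjusted p under 0.05; 0, 0 and 1 calls), whose sums overlapped at 154 to 530 CPM in responders and 66.6 to 360 CPM in non-responders.

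Of the 54 members, 46 had enough reads to be tested, and 6 of these changed. Gsta2 and Ugt3a1 were higher in responders, and Sult1d1, Sult1a1, Gstm2 and Gstm3 were lower. Over all 17610 genes, 9.93% were called, 4.11% higher and 5.82% lower in responders, beside 13.04% of the tested members. DESeq2 called 13 of 46 members (28.3%) and 17.4% of all genes (7.93% higher, 9.43% lower). Limma-voom called 9 members, 3 higher and 6 lower (19.6%), and 11.4% of all genes (5.12% and 6.27%). With quality weights it called 19 members (41.3%) and 20.7% of all genes (9.2% and 11.5%); 7 of its 11 higher calls were Ugt1a genes. Without non-responder 1, edgeR's calls of Sult1d1, Gstm2 and Gsta2 held, and those of Sult1a1 (adjusted p = 0.104), Gstm3 (0.0929) and Ugt3a1 (0.0607) were lost. With the number in each library's title as a covariate, which is largely confounded with response, edgeR called 0 members and 0.00568% of all genes. Groups did not overlap for 9 of the 46 members, against 11.5% of all genes. The median log2 fold change of the tested members was 0.31, with 28 positive and 18 negative, and that of all genes was -0.02. The 9 Ugt1a genes, whose counts rest largely on the same reads, make up 9 of the 28 positive values. The families differed among themselves: the median log2 fold change was -1.10 for Sult, 0.31 for Ugt1a, 0.61 for Ugt2, 1.24 for Ugt3, -0.10 for Gsta, -0.30 for Gstm, 0.49 for Gstp and -0.04 for Gstt.

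**Figure D1:**
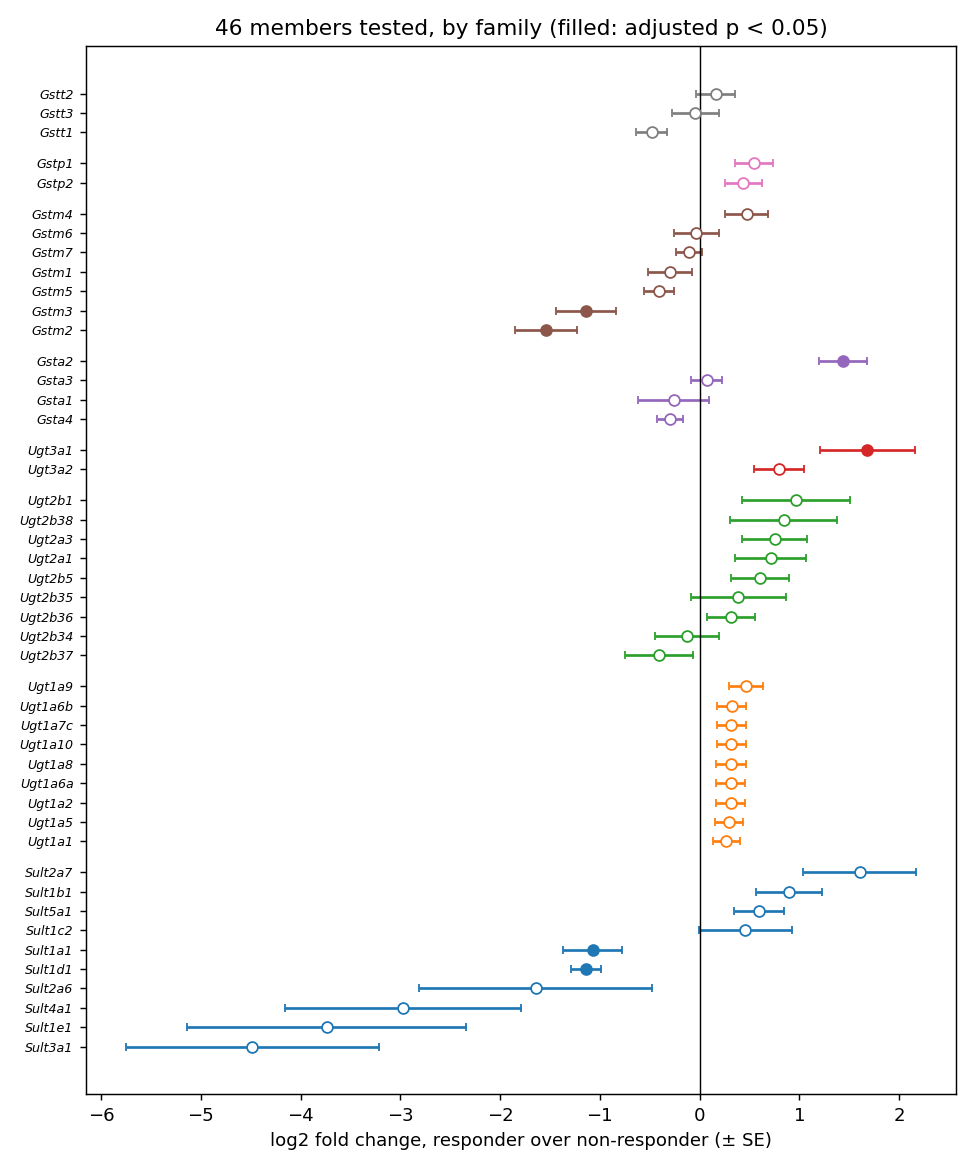
Log2 fold change of responders over non-responders with its standard error (x axis) for the 46 tested members, grouped by family (y axis); filled points have an adjusted p under 0.05. The 6 filled points are Gsta2 and Ugt3a1 to the right of 0 and Sult1d1, Sult1a1, Gstm2 and Gstm3 to the left; the widest bars belong to sulfotransferases.

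The level summed over the sulfotransferases was lower in responders, though 2 of 10 tested members fell. Summed over the 17 Sult members, CPM was 230 to 293 in responders (255 ± 22.9, mean ± SD, n = 6), 777, 843, 509 and 437 in non-responders 1 to 4, and 200.2 in the untreated library. The 2 groups did not overlap in this sum. In bulk tissue, fewer cells of a type and less RNA per cell cannot be told apart. Among the 10 tested none rose (4 had a positive and 6 a negative log2 fold change, and 8 an unadjusted p under 0.05; DESeq2 called 2 higher and 3 lower, limma-voom 0 higher and 4 lower).

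Sult1d1, which sulfates catecholamines and other small amines and phenols, was the member with the smallest p. It lies at chr5:87554645-87569027 (mm10). Its CPM was 45.2 at the lowest, 66.2 at the median and 69.5 at the highest of the 6 responders. The non-responders were at 106, 162, 128 and 132 CPM, all above every responder, and the untreated library was at 50.9 CPM. The log2 fold change was -1.14 ± 0.15 (SE; edgeR adjusted p = 0.0105), and the gene passed in all 10 fits that each left out 1 treated library, with a largest adjusted p of 0.0455.

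Sult1a1, the phenol sulfotransferase with the highest level per kilobase of listed coding length in the family (115 CPM per kilobase over the 11 libraries), lies at chr7:126672865-126676432. Responders ranged from 115 to 149 CPM with a median of 124 CPM, and non-responders 1 to 4 were at 434, 321, 168 and 123 CPM. Non-responder 4 lay within the responders, so the groups overlapped. On the log2 scale the difference was -1.07 ± 0.30 (edgeR adjusted p = 0.0435). The call held in 2 of the 10 fits with a library left out, those without non-responder 3 or non-responder 4, and the adjusted p reached 0.127 without non-responder 2. Without non-responder 1, the library with the highest value, the log2 fold change was -0.68. Limma-voom gave -0.91 (adjusted p = 0.0714), and -0.33 with quality weights (adjusted p = 0.304), and edgeR with no filter gave an adjusted p of 0.0552.

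The most negative log2 fold changes belonged to Sult3a1 and Sult1e1, which did not pass the test. Sult3a1, an amine sulfotransferase that is female-biased in mouse liver, was at 0.12, 0.20, 0.19, 7.62, 0.19 and 19.7 CPM in responders 1 to 6. Non-responders 1 to 4 were at 99.6, 139, 81.5 and 93.8 CPM, and the untreated library at 0.0415 CPM. All responders lay below all non-responders, and responders 4 and 6, those with high Afp, were the 2 highest responders. Its log2 fold change was -4.48 ± 1.27 (edgeR adjusted p = 0.0514). It was called by DESeq2 (adjusted p = 0.00919), by limma-voom (log2 fold change -7.13, adjusted p = 0.0111) and by edgeR without responder 6 (-6.16, adjusted p = 0.0176). Responder 6 is the highest responder, so leaving it out must widen the gap. That was the only fit to pass of the 10 with a library left out. The edgeR adjusted p reached 0.116 without non-responder 2 and was 0.125 with no filter.

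Sult1e1, the estrogen sulfotransferase, followed the same order. Responders 1 to 6 were at 0.00, 0.20, 0.58, 15.9, 0.11 and 31.6 CPM, non-responders 1 to 4 at 99.0, 193, 85.4 and 47.5 CPM, and the untreated library at 0.21 CPM. The groups did not overlap, and responders 4 and 6 again were the highest responders. The log2 fold change was -3.74 ± 1.40 (edgeR adjusted p = 0.116), and limma-voom gave -7.00 (adjusted p = 0.0135). DESeq2 did not call it (adjusted p = 0.0951). Without responder 6, again the highest responder, the edgeR value was -5.10 (adjusted p = 0.0481). No other of the 10 fits with a library left out passed, and the adjusted p reached 0.237 without non-responder 2. Leaving out responders 4 and 6 together, which are the highest responders for both genes and so must widen the gap, gave -9.16 for Sult3a1 (adjusted p = 1.89e-07) and -8.75 for Sult1e1 (adjusted p = 1.43e-04).

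Sult4a1, a brain-type sulfotransferase, had 103 reads over the responders and 519 over the non-responders. It had no read in responders 1, 2, 3 and 5, 0.59 CPM in responder 4 and 2.29 CPM in responder 6. Non-responders 1 to 4 were at 6.88, 4.87, 1.70 and 1.96 CPM. Responder 6 lay above non-responders 3 and 4, and the log2 fold change was -2.97 ± 1.18 (edgeR adjusted p = 0.133). Limma-voom gave -5.61 (adjusted p = 0.0174), and DESeq2 did not call the gene (adjusted p = 0.336). Without responder 6, the highest responder, so that the gap must widen, edgeR gave -5.51 (adjusted p = 0.0176). Sult2a6, a hydroxysteroid sulfotransferase, reached 2.15 CPM in responder 4 and at most 0.398 CPM in the other responders, against 0.516 to 2.25 CPM in non-responders (-1.64 ± 1.17, edgeR adjusted p = 0.398).

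**Figure D2:**
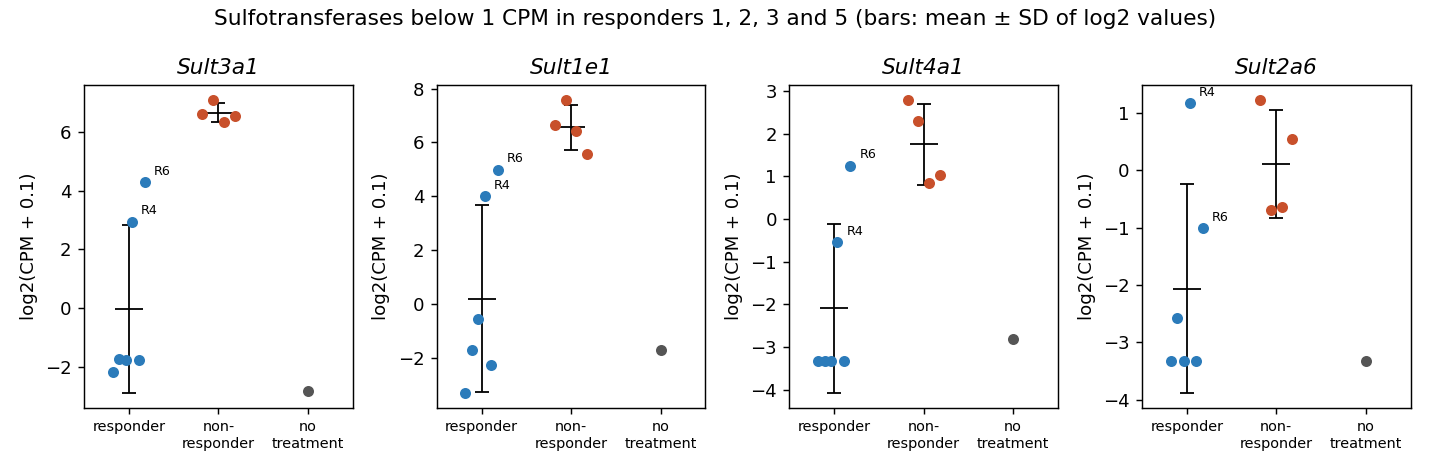
Log2(CPM + 0.1) (y axis) of Sult3a1, Sult1e1, Sult4a1 and Sult2a6 by group (x axis); points are libraries, bars the mean and SD of the log2 values, and R4 and R6 mark responders 4 and 6. In responders 1, 2, 3 and 5 all 4 genes are below 1 CPM, and for Sult3a1 and Sult1e1 responders 4 and 6 lie between those responders and the non-responders.

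The remaining Sult2a genes were near the limit of counting. Sult2a1 to Sult2a5, whose transcripts are nearly alike (Sult2a1 and Sult2a2 98.5% identical over 525 aligned bases), had 11 reads in all over the responders, 83 over the non-responders and 0 in the untreated library, where 3 counts amount to 0.0622 CPM. Sult2b1, a cholesterol sulfotransferase, had 2 reads over the responders and 54 over the non-responders. None of these 6 genes, nor Sult6b1, passed the filter on low counts. With no filter, Sult2a1 (adjusted p = 0.0475), Sult2a2 (0.0298) and Sult2b1 (0.0159) passed edgeR's test as lower in responders. All 3 also passed with the untreated library in the fit as a group. There the filter asks for reads in 1 library only, so they entered through the non-responders, where they are high. That fit therefore adds no support. The 4 tested members with positive values did not pass edgeR's test: Sult1b1, a phenol and thyroid hormone sulfotransferase (0.90 ± 0.33, edgeR adjusted p = 0.108), Sult5a1 (0.59 ± 0.25), Sult1c2 (0.46 ± 0.47) and Sult2a7 (1.61 ± 0.56, from 66 and 16 reads). DESeq2 called Sult1b1 and Sult2a7 higher, and limma-voom called neither. The groups did not overlap for Sult2a7, at 0.215 to 0.600 CPM in responders and at most 0.155 CPM in non-responders.

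Sult1d1 and Sult1e1 lie close together on chromosome 5 and have the largest log2 fold changes of the tested Sult1 genes, so the 250 bases upstream of their RefSeq starts are shown (GRCm38.p6, minus strand, 5′ to 3′). The sequences are of the reference genome and not of FVB/NJ. Windows of 300 bases, 250 before and 50 after the start, were searched on both strands for TGACNNNGC (antioxidant response element core), GCGTG (AhR core), TTCNNNGAA (STAT core) and the HNF1 consensus, and capitals mark matches within the bases shown. The Sult1d1 capitals are a GCGTG match on the other strand, and the Sult1e1 window held none of the 4 motifs. Aligned to each other, the upstream stretches were 51.4% identical.
Sult1d1, chr5:87569007-87569256: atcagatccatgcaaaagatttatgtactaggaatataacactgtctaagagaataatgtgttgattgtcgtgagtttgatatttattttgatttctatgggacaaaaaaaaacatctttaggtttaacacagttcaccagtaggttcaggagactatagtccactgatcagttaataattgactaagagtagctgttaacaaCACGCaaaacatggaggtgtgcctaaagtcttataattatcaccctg
Sult1e1, chr5:87591612-87591861: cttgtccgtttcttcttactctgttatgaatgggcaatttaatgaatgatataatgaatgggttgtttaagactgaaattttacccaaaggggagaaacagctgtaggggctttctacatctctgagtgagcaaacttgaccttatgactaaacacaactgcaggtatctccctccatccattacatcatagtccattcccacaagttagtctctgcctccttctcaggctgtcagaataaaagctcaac

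Of the 54 members 46 had a RefSeq start in the promoter table. TGACNNNGC was found in 2 of them (Gsta3 and Gstm5), against 12.4% of all 32851 promoters. GCGTG was found in 9 members against 32.4% of all, TTCNNNGAA in 3 against 8.30%, and the HNF1 motif in 0 against 0.00913%. A match is a stretch of letters and not a binding site, and the lack of one says only that these letters are not in the window.

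Among the glutathione S-transferases of the mu class, Gstm2 and Gstm3 fell and the other 5 tested genes did not pass. Gstm2 lies at chr3:107981702-107986453 and Gstm3 at chr3:107963696-107969283, in the Gstm cluster. Gstm2 was at 33.6 CPM at the lowest, 49.8 at the median and 95.3 at the highest responder, with the 2 highest values in responder 4 and responder 6 (80.0 CPM). Non-responders 1 to 4 were at 257, 143, 131 and 132 CPM, above every responder, and the untreated library was at 31.3 CPM. The log2 fold change was -1.54 ± 0.31 (edgeR adjusted p = 0.0196). It passed in 8 of 10 fits with a library left out, and the adjusted p was 0.0526 without responder 2 and 0.0620 without non-responder 2.

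For Gstm3 the responders ranged from 76.3 to 224 CPM with a median of 103 CPM, and the non-responders were at 346, 171, 242 and 278 CPM. Responder 4, at 224 CPM, lay above non-responder 2, so the groups overlapped. On the log2 scale Gstm3 was at -1.14 ± 0.30 relative to non-responders (edgeR adjusted p = 0.0367). The call held in 2 of 10 fits with a library left out, those without responder 4 or non-responder 3, and the adjusted p reached 0.0929 without non-responder 1. Responders 4 and 6 are the highest responders for both genes, so leaving them out together must widen the gap and adds no support. The log2 fold change was then -1.96 for Gstm2 (edgeR adjusted p = 0.00182) and -1.53 for Gstm3 (adjusted p = 0.00328).

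Gstm1 had the highest level per kilobase of the 54 members, 818 CPM per kilobase over the 11 libraries. It was at 1068 ± 236 CPM in responders (SD, n = 6) and 1288 ± 352 CPM in non-responders (SD, n = 4), and the difference on the log2 scale was -0.30 ± 0.22 (edgeR adjusted p = 0.423). Transcripts of Gstm1 and Gstm3 are 89.5% identical over 1054 aligned bases, and how reads matching both were counted is not given in the sources used here. Gstm4 had a value of 0.47 ± 0.21 and Gstm5 one of -0.41 ± 0.15, with edgeR adjusted p of 0.174 and 0.0994. Gstm6 (-0.03) and Gstm7 (-0.11) were closest to 0 in the class.

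In the alpha class Gsta2 rose. It lies at chr9:78331018-78355788 and was at 4.24, 3.77, 3.32, 3.06, 5.99 and 4.58 CPM in responders 1 to 6, at 1.37, 1.11, 1.52 and 2.06 CPM in non-responders 1 to 4 and at 3.15 CPM in the untreated library. All responders lay above all non-responders. Its log2 fold change was 1.44 ± 0.24 (edgeR adjusted p = 0.0149), on 816 reads over the responders and 221 over the non-responders. It passed in 9 of 10 fits with a library left out, and without non-responder 2 the adjusted p was 0.0544. Gsta1, on the same chromosome, is 97.2% identical over 870 aligned transcript bases, so reads of these genes may have been split between them. Gsta1 was at 1.72 to 4.01 CPM in responders and at 4.60, 6.09, 1.91 and 2.06 CPM in non-responders, and the groups overlapped (-0.26 ± 0.35, edgeR adjusted p = 0.678). Its highest values were in non-responders 1 and 2, which were low for Gsta2.

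Gsta3, the most abundant alpha class gene (263 CPM per kilobase over the 11 libraries), was at 1158 ± 134 CPM in responders and 1088 ± 161 CPM in non-responders (0.07 ± 0.15, edgeR adjusted p = 0.806). Gsta4, which conjugates the lipid peroxidation product 4-hydroxynonenal, was at 61.1 ± 8.93 CPM in responders and 73.8 ± 8.15 CPM in non-responders (-0.30 ± 0.13, edgeR adjusted p = 0.179). The upstream stretches of the 3 alpha class genes on which these values turn are shown, 5′ to 3′ (GRCm38.p6; plus strand for Gsta1 and Gsta3, minus strand for Gsta2), with matches to the 4 motifs in capitals. The Gsta1 match is TTCNNNGAA, the Gsta2 match GCGTG and the Gsta3 match TGACNNNGC. The searched window of Gsta1 also holds GCGTG, at a place not fully within the bases shown. The RefSeq start of Gsta2 lies 8643 bases from the listed end of the gene. Gsta1 and Gsta2 were identical at 190 of 266 aligned columns (71.4%).
Gsta1, chr9:78230419-78230668: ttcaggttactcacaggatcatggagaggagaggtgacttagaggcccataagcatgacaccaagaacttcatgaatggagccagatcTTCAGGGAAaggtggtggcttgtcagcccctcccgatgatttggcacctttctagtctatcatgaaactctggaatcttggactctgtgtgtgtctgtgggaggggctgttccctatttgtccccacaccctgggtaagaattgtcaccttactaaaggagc
Gsta2, chr9:78347146-78347395: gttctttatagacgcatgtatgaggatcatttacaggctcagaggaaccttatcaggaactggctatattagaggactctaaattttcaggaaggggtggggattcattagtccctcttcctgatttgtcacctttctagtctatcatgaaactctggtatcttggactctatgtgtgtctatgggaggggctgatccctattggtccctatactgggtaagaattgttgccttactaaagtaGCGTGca
Gsta3, chr1:21240335-21240584: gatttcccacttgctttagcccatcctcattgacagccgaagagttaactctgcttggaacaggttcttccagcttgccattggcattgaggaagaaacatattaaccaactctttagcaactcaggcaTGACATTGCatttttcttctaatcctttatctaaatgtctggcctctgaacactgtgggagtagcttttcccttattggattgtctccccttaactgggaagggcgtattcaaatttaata

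The pi and theta classes gave no call by edgeR. In the pi class, Gstp1, which conjugates many electrophiles, was at 148 ± 18.8 CPM in responders and 84.7, 68.9, 105 and 144 CPM in non-responders (0.54 ± 0.19, edgeR adjusted p = 0.0881; DESeq2 adjusted p = 0.0416). Gstp2, 98.2% identical to Gstp1 over 707 transcript bases, had a value of 0.44 ± 0.18 (edgeR adjusted p = 0.145). Both pi class genes had an unadjusted p under 0.05, and limma-voom called 0 of 2.

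In the theta class, Gstt1, which acts on small halogenated compounds, was at 175 to 218 CPM in responders and at 352, 260, 232 and 221 CPM in non-responders. The groups did not overlap, with responder 1 and non-responder 4 next to each other (-0.48 ± 0.16, edgeR adjusted p = 0.0712; DESeq2 adjusted p = 0.0246). Gstt2 had a value of 0.16 ± 0.20 and Gstt3 one of -0.04 ± 0.24. Of the 3 tested theta genes 1 had an unadjusted p under 0.05, DESeq2 called 1, limma-voom 0 and limma-voom with quality weights 1. Gstt4 had 8 reads in all and was not tested.

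**Figure D3:**
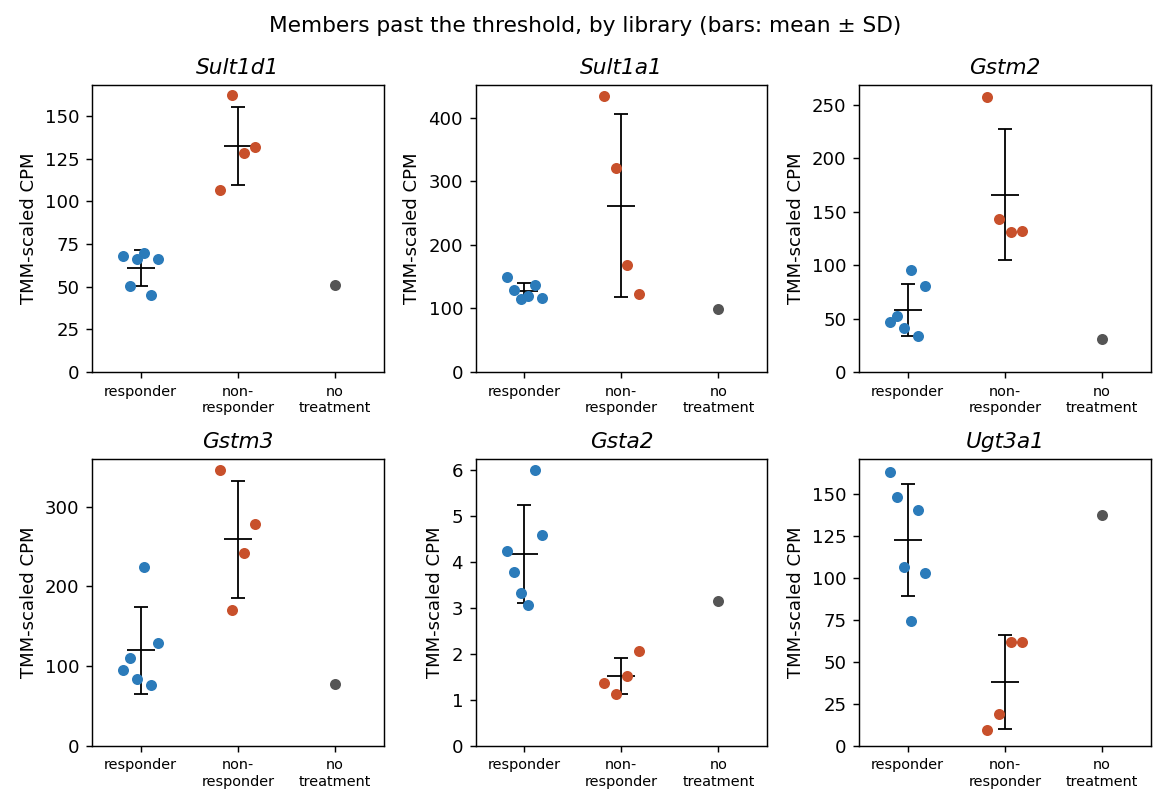
TMM-scaled CPM (y axis, from 0) of the 6 members with an adjusted p under 0.05, by group (x axis); points are libraries and bars the mean and SD of a group. Responders and non-responders do not overlap for Sult1d1, Gstm2, Gsta2 and Ugt3a1, and 1 library overlaps for Sult1a1 (non-responder 4, 123 CPM) and Gstm3 (responder 4, 224 CPM).

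The Ugt3 genes, which encode transferases that use UDP-N-acetylglucosamine or other UDP-sugars, were both higher in every responder than in any non-responder. Ugt3a1, at chr15:9273319-9315032, was at 163, 148, 106, 74.6, 140 and 103 CPM in responders 1 to 6 and at 9.61, 18.8, 61.9 and 61.9 CPM in non-responders 1 to 4. Non-responders 1 and 2 were far lower than non-responders 3 and 4, and the untreated library, at 137 CPM, lay among the responders. The log2 fold change was 1.68 ± 0.48, with an edgeR adjusted p of 0.049997, just under the threshold. The call held in 3 of 10 fits with a library left out, those without responder 4, non-responder 3 or non-responder 4, and the adjusted p reached 0.130 without non-responder 2. Ugt3a2 was at 237 to 318 CPM in responders with a median of 304 CPM and at 83.4, 120, 221 and 227 CPM in non-responders. Its log2 fold change was 0.80 ± 0.25 (edgeR adjusted p = 0.0662; DESeq2 adjusted p = 0.0174).

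None of the 9 Ugt2 genes, which glucuronidate steroids, bile acids and drugs, passed the edgeR test (1 had an unadjusted p under 0.05; calls numbered 0 with DESeq2, 0 with limma-voom and 1, lower, with quality weights added), and 7 of the 9 had a positive log2 fold change. Their summed CPM was 2652 to 3165 in responders, with a mean of 2931 ± 191 (SD, n = 6). In non-responders 1 to 4 it was 753, 1631, 3290 and 3127. Non-responders 1 and 2 were thus below every responder, non-responder 4 was within them and non-responder 3 above them. Ugt2b1 had the largest log2 fold change of the family: 455 to 912 CPM in responders and 62.6, 153, 577 and 639 CPM in non-responders (0.97 ± 0.54, edgeR adjusted p = 0.274). Ugt2a3, with the smallest p of the family, was at 46.9, 110, 201 and 177 CPM in non-responders against 167 to 277 CPM in responders (0.75 ± 0.32, edgeR adjusted p = 0.155). Ugt2b36, the most abundant per kilobase (326 CPM per kilobase over the 11 libraries), was at 677 to 762 CPM in responders and at 289, 433, 791 and 778 CPM in non-responders (0.31 ± 0.24, edgeR adjusted p = 0.437). Ugt2b34 (-0.13 ± 0.32) and Ugt2b37 (-0.41 ± 0.34) had negative values. Transcripts of Ugt2b5 and Ugt2b38 are 95.5% identical over 1861 bases, and their values were 0.61 ± 0.29 and 0.84 ± 0.53.

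**Figure D4:**
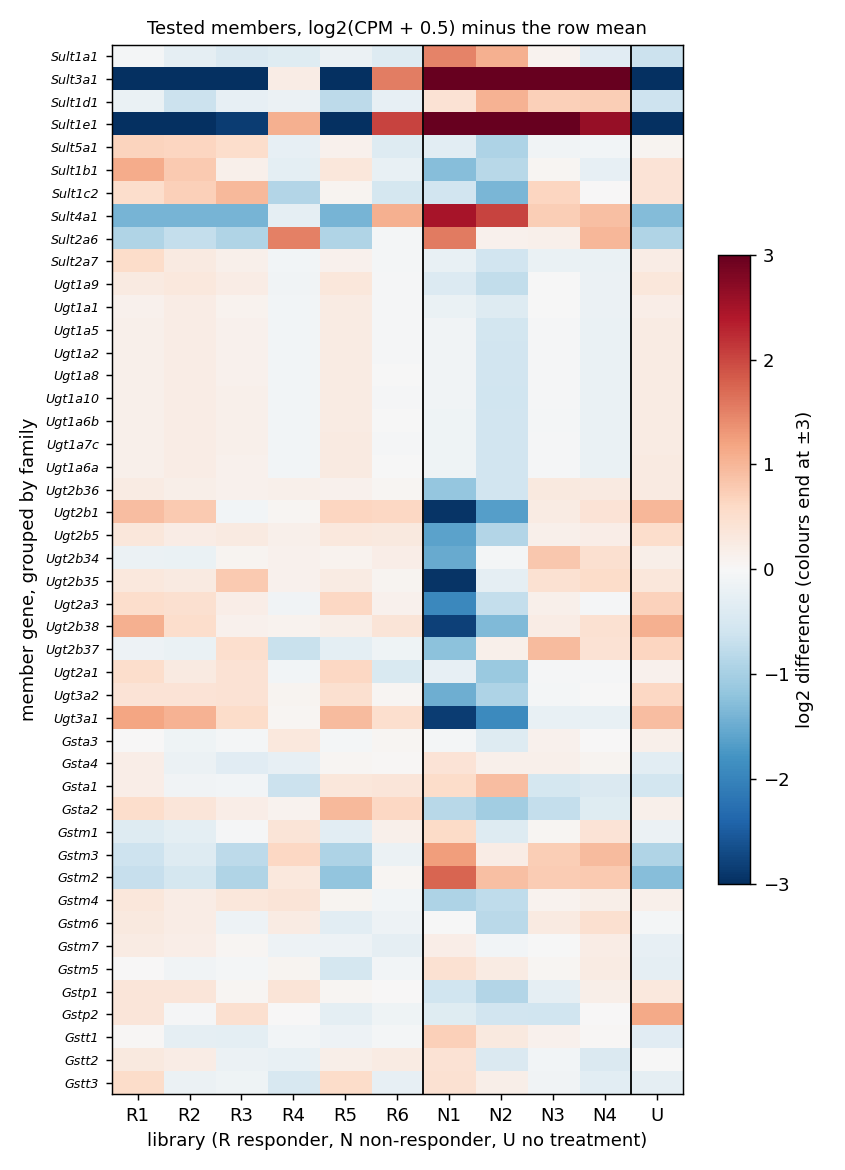
Log2(CPM + 0.5) minus the mean of each row (colour, ending at ±3) for the 46 tested members (y axis, by family) in the 11 libraries (x axis; R responder, N non-responder, U no treatment). Sult3a1 and Sult1e1 are high in all non-responders and in responders 4 and 6 and Ugt2b1 and Ugt3a1 are lowest in non-responders 1 and 2.

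The 9 Ugt1a genes lie in 1 locus on chromosome 1, in which each has its own first exon and all share the same 3′ exons. Ugt1a1 conjugates bilirubin, Ugt1a6 planar phenols and Ugt1a9 bulky phenols and drugs. The log2 fold changes of their gene counts lay close together, from 0.27 for Ugt1a1 to 0.47 for Ugt1a9. None passed the edgeR test (3 had an unadjusted p under 0.05; calls numbered 1 with DESeq2, 0 with limma-voom and 7 with quality weights added, all higher). Counts of the first exon came to 0.257% to 24.5% of the gene count, so the gene counts were mostly reads outside the first exons. The first exons in the deposited exon counts were therefore compared, a choice made after seeing the data.

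Ugt1a9 and Ugt1a1 held most first exon counts, and their shares differed between libraries. Ugt1a9 made up 50.6% to 61.2% of first exon counts in responders, with a mean of 56.4% ± 4.03 (SD, n = 6). In non-responders it was 18.4% (95% Wilson interval 17.0% to 19.97%), 22.3%, 50.1% and 52.9%, and in the untreated library 60.8%. Non-responders 1 and 2 were far below the responders, while non-responder 4 lay within them and non-responder 3 just below. Ugt1a1 made up 22.9% to 32.5% in responders, 54.7%, 57.5%, 33.1% and 31.5% in non-responders and 21.6% in the untreated library. Ugt1a5 made up 2.21% to 3.78% in responders and 13.1%, 8.26%, 4.71% and 3.39% in non-responders. As levels, the Ugt1a9 first exon was at 157 to 286 CPM in responders and at 16.9, 58.1, 193 and 172 CPM in non-responders (1.10 ± 0.53, edgeR adjusted p = 0.206). The Ugt1a1 first exon was at 110 ± 11.8 CPM in responders and 108 ± 42.9 CPM in non-responders (0.02 ± 0.23, edgeR adjusted p = 0.963). With first exons in place of gene counts, only Ugt1a8 of the 9 passed (1.21 ± 0.34, edgeR adjusted p = 0.0465), on 29 to 254 counts a treated library, where 9.91% of all genes were called (4.09% higher). All 9 genes list the same start for 4 exons at the 3′ end. In non-responder 1 the first 3 of these held 1.68 counts for each first exon count, against 0.761 to 0.918 in the other 10 libraries, and the last held 5.12, against 0.942 to 1.23. Its reads thus lay more toward the 3′ end of the locus; the part of this in the shares, or in other values of that library, was not tested.

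**Figure D5:**
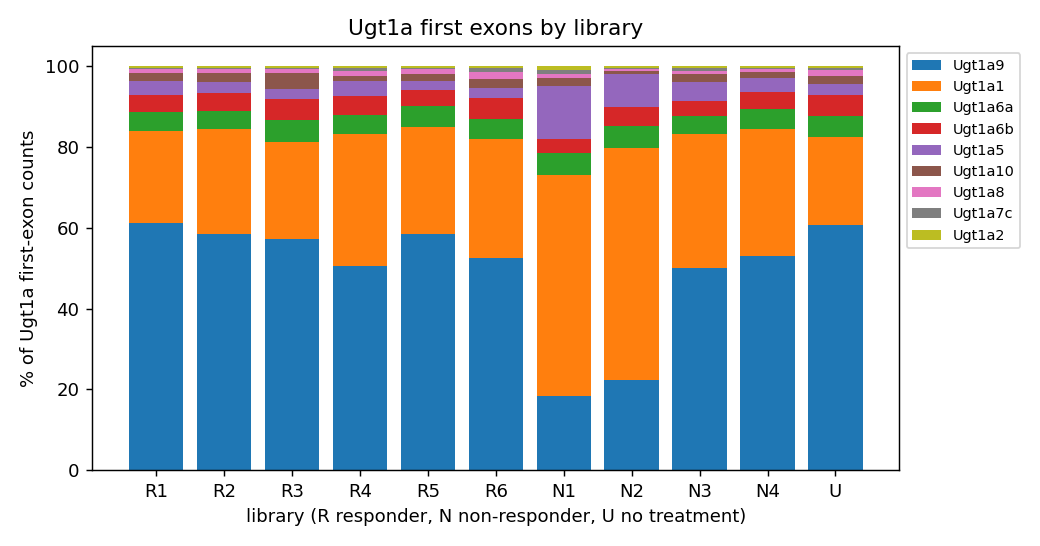
Share of the Ugt1a first exon counts (y axis, percent) held by each of the 9 genes in each library (x axis; R responder, N non-responder, U no treatment). Ugt1a9 takes 18.4% and 22.3% in non-responders 1 and 2 and at least 50.05% in the other 9 libraries.

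The untreated library was a single one and was not tested. Of 44 members with a mean of at least 1 CPM, it lay within the range of the 10 treated libraries for 34, above it for 6 (10.2% of all genes with such a mean) and below it for 4 (7.36% of all). Above were Gstp2, at 34.3 CPM and 1.59 times the highest treated library, Ugt2b5 (506 CPM, 1.14 times), Ugt3a2 (352 CPM, 1.11 times), Ugt2a3, Ugt2b1 and Ugt2b38. Below were Sult3a1, Sult1a1 (99.2 CPM, 0.866 times the lowest treated library), Gstm2 (0.931 times) and Gstt1 (0.973 times). For all 6 members that passed the test, the untreated value was nearer to the responder mean than to the non-responder mean. These members were picked by that same contrast, and no share of all genes is given beside this count. Afp had the same order, at 1.72 CPM in the untreated library against means of 38.2 CPM in responders and 245 CPM in non-responders. Whether the count is particular to these enzymes was not tested.

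The genes that supply and complete these reactions were read from lists outside the families. Of 36 tested genes for cofactor supply and other conjugation, 7 rose and 2 fell in responders, with a median log2 fold change of 0.40. Gnmt, the glycine N-methyltransferase, was at 433 to 1329 CPM in responders and 152, 198, 330 and 274 CPM in non-responders (1.74 ± 0.32, edgeR adjusted p = 0.0165). Gsto1, an omega class glutathione transferase, rose (0.91 ± 0.15, adjusted p = 0.0149), and As3mt, the arsenic methyltransferase, fell (-1.69 ± 0.29, adjusted p = 0.0149). Papss2, which makes the sulfate donor, had a value of -0.52 ± 0.15 (edgeR adjusted p = 0.0523), and its groups did not overlap. Ugdh, which makes UDP-glucuronic acid, had 0.37 ± 0.20, and Gclc, which limits glutathione synthesis, had 0.21 ± 0.19.

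Among 23 tested regulators 3 rose and 0 fell, with a median of 0.08 (9 at an unadjusted p under 0.05; DESeq2 called 4 higher and 3 lower, limma-voom 3 higher and 1 lower). The bile acid receptor Nr1h4 rose by 0.42 ± 0.11 and Cebpa by 0.95 ± 0.27 on the log2 scale (edgeR adjusted p = 0.0392 and 0.0470). The NRF2 gene Nfe2l2 had a value of -0.56 ± 0.17 (edgeR adjusted p = 0.0528).

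Of 19 tested NRF2 target genes outside the families 2 rose and 2 fell, with a median of -0.11 and 11 negative values. Abcc3, which exports conjugates from the hepatocyte, was higher (1.92 ± 0.26, edgeR adjusted p = 0.0118), as was Me1 (1.30 ± 0.21, adjusted p = 0.0148), and Srxn1 was lower (-0.79 ± 0.17, adjusted p = 0.0210). Of 15 tested CAR, PXR and AhR target genes, Aldh1a7 (0.92 ± 0.20, edgeR adjusted p = 0.0235) and Aldh1a1 (1.02 ± 0.27, adjusted p = 0.0363) rose and none fell (5 had an unadjusted p under 0.05; DESeq2 and limma-voom each called 3, all higher). The median was -0.09, with 6 positive and 9 negative values. Cyp3a11 had 1.41 ± 0.42 (adjusted p = 0.0519).

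Genes with a known sex bias in mouse liver are given beside the sulfotransferases, since Sult3a1 and Sult1e1 were low in responders. Of 24 tested female-biased genes outside the families, 8 fell and 1 rose, with a median log2 fold change of -1.90. A1bg was at 0.480 to 3.09 CPM in responders and 352, 182, 58.0 and 30.04 CPM in non-responders (-6.79 ± 0.76, edgeR adjusted p = 0.0105). Cyp2a4 (-2.45 ± 0.43, adjusted p = 0.0160) and Cyp17a1 (-4.56 ± 0.87, adjusted p = 0.0187) also fell. Of 24 tested male-biased genes 3 rose and 0 fell, with a median of 1.30 (13 at an unadjusted p under 0.05; DESeq2 called 8 higher and 2 lower, limma-voom 8 higher and 1 lower). The 3 were Susd4 (2.98 ± 0.70, edgeR adjusted p = 0.0305), Gna14 (1.64 ± 0.41, adjusted p = 0.0330) and Mup13 (3.52 ± 0.96, adjusted p = 0.0436). The Y-linked genes Ddx3y, Kdm5d, Uty and Eif2s3y were at 17.9 to 75.7 CPM and Xist at 0.526 to 2.47 CPM in all 11 libraries, and none of these 5 genes passed the edgeR test (0 had an unadjusted p under 0.05; calls numbered 0 with DESeq2, 0 with limma-voom and 0 with quality weights added).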

How the data were processed

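The series holds 11 bulk liver libraries of total RNA. The authors deposited whole-number read counts per gene and per exon on mm10, per the file headers and the submitters' processing notes, which also name FastQC. The sources used here do not give the aligner, the counter, its strand setting or how reads matching several genes were treated. RPKM columns that the authors deposited beside the counts were not used.

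Groups follow the label on treatment response, and the untreated library was only placed within the treated range. Genes passing filterByExpr were tested with edgeR 4.0.16 (R 4.3.3; TMM scaling, robust quasi-likelihood F test, adjusted p threshold 0.05), after the code was tested on simulated data. SE is the log2 fold change divided by the square root of F. Alternatives used limma 3.58.1, DESeq2 1.42.0, other scalings, filters and sample sets, and exon sums. The median chi-square between libraries of 1 group was 3.97 or more times its value under counting noise, so no library was taken as a repeat of another. Intervals, and the limit of 3 counts for a count of 0, cover counting error only.

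The members and lists were chosen with earlier results of these data known. Genes were named by this rule: members past the threshold, the most abundant per kilobase and smallest p of each family, the 3 members whose untreated value lay farthest above and the 3 farthest below the treated ones, and the 3 smallest p of each list outside the families. Other members named were chosen after their values were seen. A gene that the rule names is not reported here. Transcript identity comes from GENCODE M21 transcripts and upstream sequence from RefSeq; protein sequences were not used here.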

Additional observations from a re-analysis of the deposited data

Results flagged for a closer look

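Each group of libraries (6 responders, 4 non-responders) was checked for a highest or lowest library that stands far from the rest. Over the members named there were 58 checks. Chance flags about 1 in 20 groups, and 3 were flagged. Gstm2 was at 257 CPM in non-responder 1, with the nearest non-responder at 143 CPM. Gstm3 was at 224 CPM in responder 4, with the nearest responder at 129 CPM. Sult4a1 was at 2.29 CPM in responder 6, with the nearest responder, responder 4, at 0.590 CPM. Responders 4 and 6 are the responders with high Afp (121.7 and 100.1 CPM); its part in these values was not tested.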

How the results depend on the processing

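With edgeR and TMM, 2 members were higher and 4 lower in responders, of 1748 genes called. Members higher numbered 1 with RLE scaling (1756 genes called, 9.97% of those tested) and 1 with no filter (1244 genes, 4.26%). DESeq2 gave 7 higher (3057 genes called, 17.4%), and limma-voom with quality weights 11 higher and 8 lower (3642 genes, 20.7%). The untreated library as a group in the fit gave 1 higher and 7 lower (1726 genes, 8.72%). An adjusted p of 0.10 as threshold gave 5 higher and 7 lower (3180 genes, 18.1%). The 7 lower with the untreated library as a group include Sult2a1, Sult2a2 and Sult2b1, which entered that fit on reads of non-responders. Without responders 4 and 6 there were 4 higher and 7 lower (23.9% of members), beside 2157 genes called (12.5%). Those libraries are the highest responders for Sult3a1, Sult1e1, Gstm2 and Gstm3, so leaving them out must widen the gap of these genes. A covariate for the number in each title left 0 members higher, 0 lower and 1 gene called; responders mostly carry lower title numbers (1 to 29, against 26 to 37), so number and group are largely confounded, and what the number means is not given in the sources used here. Leaving out each treated library in turn gave 0 to 4 members higher (0 without non-responder 2, 4 without non-responder 4), 1 to 5 lower (1 without responder 2 or non-responder 2, 5 without responder 6) and 79 to 1994 genes called: 79 without non-responder 2, and 425, 324, 996 and 309 without responders 1, 2, 3 and 5. The log2 fold change of Gsta1 turned to 0.41 with limma-voom with quality weights and to 0.102 without non-responder 2 (leave-one-out range -0.477 to 0.102). That of Gsta3 turned to -0.0121 with quality weights, -0.0187 without non-responder 2 and -0.0205 without responders 4 and 6 (leave-one-out range -0.0187 to 0.137). Neither passed there, and the cause was not tested. Ugt1a first exons, an alternative chosen after seeing the data, gave 3 higher and 4 lower (1746 genes called, 9.91%). Group means of the family sums moved by less than the SD between libraries under the other scalings. With a library left out, these means and those of the first exon shares also did, but leaving out 1 library cannot move a mean further than that. The counts for the untreated library were rerun under the other scalings only, and 1 library gives no spread to judge them by. Depth limits Sult2a1 to Sult2a5, Sult2b1, Sult6b1 and Gstt4, which did not pass the filter on low counts; with no filter Sult2a1, Sult2a2 and Sult2b1 passed as lower in responders. No paired analysis was possible because the groups share no replicate numbers in the labels.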
